A study of Mus musculus with 6 samples.

Results

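The genes described here are the chemokines and chemokine receptors, which were chosen by gene name: Ccl, Cxcl, Xcl, Cx3cl, Ccr, Cxcr, Xcr, Cx3cr or Ackr followed by a digit. The rule found 53 of the 26754 genes in each table, namely 18 CC ligands, 11 CXC ligands, 2 ligands of the Xcl and Cx3cl kinds, 19 receptors and 3 atypical receptors. They were compared between day 14 and day 7 after B16 melanoma cells, a mouse line of C57BL/6 origin, were placed under the skin of the flank of C57BL/6J mice. All mice were female and 6 to 8 weeks old, and no group without a tumour was analysed here. Tumours were made into cell suspensions, cells carrying CD8a were pulled out with magnetic beads, RNA was taken with TRIzol, and poly-A, strand-specific libraries were sequenced in pairs. Each day had 3 libraries, and no label says that the replicates came from separate mice or whether mice were pooled, so p-values measure only the spread between these samples, which may be technical.

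Chemokines are small secreted proteins that direct the movement of leukocytes, and their receptors are G protein-coupled receptors on the cells that move. CC and CXC ligands are named for the spacing of conserved cysteines near the N-terminus, and atypical receptors take up ligand without signalling through G proteins. In tumours, ligands of Ccr2 draw in monocytes, ligands of Cxcr2 draw in neutrophils, and ligands of Cxcr3 and Cxcr6 act on T cells and natural killer cells.

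Values are RPKM, reads per kilobase of gene length per 1000000 reads assigned to genes, so levels can be set side by side between genes. Libraries held 11385106 to 13316522 reads in genes on day 14 and 6523019 to 9313078 on day 7, and 18318 to 19053 genes had a read on day 14 against 13133 to 13806 on day 7. Day 7 replicates 1 and 2 differed by little more than sampling noise (a median chi-square ratio of 1.11 per fragment, where 1 is noise alone), while both stood far from replicate 3, with ratios of 40.9 and 44.4. Between day 14 libraries the ratio was 4.05 to 4.43. The mean of day 7 replicates 1 and 2 was for that reason taken as 1 sample, which leaves n = 3 on day 14 and n = 2 on day 7. The labelled cell type was checked with Cd8b1, the beta chain of CD8, which stood at 32.5, 39.2 and 31.1 RPKM on day 14 and 148, 148 and 123 RPKM on day 7. All libraries also held RNA of other cells. The summed RPKM of 7 pigment-cell genes was 10410 to 11430 on day 14 and 5672 to 5896 on day 7, that of 13 macrophage and monocyte genes was 694 to 715 on day 14 and 343 to 448 on day 7, and that of 16 T cell genes was 165 to 181 on day 14 and 622 to 703 on day 7. Most of the pigment-cell sum was Dct, with 9073, 8577 and 9681 RPKM on day 14 and 4521, 4726 and 4431 RPKM on day 7. Mlana, Tyr, Tyrp1 and Sox10 were also higher in every day 14 library, while Pmel and Mitf overlapped. Lyz2 gave 392, 381 and 376 RPKM of the macrophage sum on day 14 and 232, 226 and 186 RPKM on day 7. In bulk RNA of this kind, fewer cells of a type and less RNA per cell cannot be told apart.

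Promoters are shown first for 2 groups of neighbouring genes that hold 3 of the 4 genes called higher on day 14. Cxcl1, Cxcl2 and Cxcl3 lie near each other on chromosome 5, and Cxcl2 alone of them was abundant enough to be tested. Each window runs from 250 bases before to 50 bases after the start of the gene in RefSeq (GRCm38.p6), 5′ to 3′ on the strand of the gene, at chr5:90890995-90891294 for Cxcl1, chr5:90903649-90903948 for Cxcl2 and chr5:90785851-90786150 for Cxcl3, all on the + strand. Capitals mark matches on either strand to GGGAANTTC and GGGNNTTTC, forms of the NF-kB motif cut to 9 letters, whose matches may overlap each other.
Cxcl1: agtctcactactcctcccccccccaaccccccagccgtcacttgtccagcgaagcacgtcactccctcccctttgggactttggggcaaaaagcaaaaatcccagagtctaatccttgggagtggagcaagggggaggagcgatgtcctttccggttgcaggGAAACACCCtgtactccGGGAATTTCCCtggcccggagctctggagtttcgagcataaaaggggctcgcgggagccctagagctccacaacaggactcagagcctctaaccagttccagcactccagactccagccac
Cxcl2: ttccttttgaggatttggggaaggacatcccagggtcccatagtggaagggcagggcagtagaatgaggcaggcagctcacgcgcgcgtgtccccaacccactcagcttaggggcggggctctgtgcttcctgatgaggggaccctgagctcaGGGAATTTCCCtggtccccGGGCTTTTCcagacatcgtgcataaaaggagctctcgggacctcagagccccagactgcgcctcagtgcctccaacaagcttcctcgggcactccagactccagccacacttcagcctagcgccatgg
Cxcl3: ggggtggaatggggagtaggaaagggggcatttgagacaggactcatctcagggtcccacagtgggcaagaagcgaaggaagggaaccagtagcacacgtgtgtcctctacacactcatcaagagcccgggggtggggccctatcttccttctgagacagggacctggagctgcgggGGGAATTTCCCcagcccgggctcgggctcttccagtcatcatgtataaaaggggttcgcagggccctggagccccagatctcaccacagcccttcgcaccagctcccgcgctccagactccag
The run GGGAATTTCCC stood in all 3 windows, beginning 71 bases before the start in Cxcl1, 97 bases before it in Cxcl2 and 73 bases before it in Cxcl3. Aligned end to end, the windows were 55.6% identical between Cxcl1 and Cxcl2, 60.3% between Cxcl2 and Cxcl3 and 55.5% between Cxcl1 and Cxcl3, against 46.5% for the unrelated pair of Cxcl2 and Ccl6.

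Ccl6 and Ccl9 are neighbours on chromosome 11 and share their reading direction. Their windows lie at chr11:83593038-83593337 for Ccl6 and chr11:83578587-83578886 for Ccl9 (GRCm38.p6, both on the − strand). Capitals mark the longest run of letters common to both.
Ccl6: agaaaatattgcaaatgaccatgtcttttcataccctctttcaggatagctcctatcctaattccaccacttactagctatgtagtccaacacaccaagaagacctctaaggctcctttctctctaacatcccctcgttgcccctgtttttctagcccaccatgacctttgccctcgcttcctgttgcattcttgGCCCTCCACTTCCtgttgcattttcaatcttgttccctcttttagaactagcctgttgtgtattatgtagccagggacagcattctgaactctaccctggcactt
Ccl9: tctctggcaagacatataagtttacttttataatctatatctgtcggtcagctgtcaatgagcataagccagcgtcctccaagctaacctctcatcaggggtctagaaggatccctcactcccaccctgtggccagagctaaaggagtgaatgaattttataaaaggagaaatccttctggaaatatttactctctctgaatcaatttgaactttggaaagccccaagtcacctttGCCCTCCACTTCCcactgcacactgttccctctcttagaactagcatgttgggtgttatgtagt
The shared run of 13 bases, GCCCTCCACTTCC, began 55 bases before the start in Ccl6 and 14 bases before it in Ccl9, and the pair of windows was 49.7% identical. Windows were at hand for 40 of the 53 genes (44 windows in all). GGGAANTTC stood in 7 of the 44, those of Ccl1, Ccr3, Cxcl1, Cxcl2, Cxcl3, Cxcl9 and Cxcl10, against 1.08% of 32851 windows of all genes. GGGNNTTTC stood in 10, among them those of Cxcl1, Cxcl2, Cxcl3, Cxcl9 and Ccl9, against 4.36%. GAAANNGAA, cut in the same way from the interferon-stimulated response element, stood in 7, those of Ccl1, Ccl3, Ccr2, Cxcl9, Cxcl10, Cxcl14 and Cxcr1, against 8.56%. A match describes the letters and is neither a binding site nor a cause.

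Of the 53 genes, 11 passed the filter for testing, a mean of 20 or more CPM (reads per library of 1000000) over the 5 samples: 5 CC ligands, 4 CXC ligands and 2 receptors. On day 14, 4 ligands were higher, namely Cxcl2, Ccl7, Ccl6 and Ccl9, and no member was called lower. Of these, Ccl7 passed the filter only through its day 14 values. The test was limma on log2(RPKM + 1) with Benjamini-Hochberg adjustment over all 6691 genes tested, of which 1.48% were called higher and 1.79% lower (3.27% in either direction). All 4 were ligands, 3 of the 5 CC ligands tested and 1 of the 4 CXC ligands, while 0 of the 2 receptors tested were called. At an unadjusted p under 0.05, 6 members were higher and 1 was lower, and limma-voom on the recovered reads called 3 higher and 1 lower. Over all tested genes, 1249 had an unadjusted p under 0.05 in either direction, and limma-voom called 736 higher and 538 lower. With a filter of 5 CPM, 23 members and 10913 genes were tested, and Ccl6 was the 1 member called higher, with 0 lower, against 0.302% of genes higher and 0.467% lower (0.77% in either direction). The median log2 fold change was 1.04 over the 11 members, 1.22 over the CC ligands and 0.72 over the CXC ligands, against 0.16 over all genes tested. With the filter of 5 CPM it was 0.04 over the 23 members, against 0.20 over all 10913 genes. The higher median of the 11 was thus not seen in that wider set. All 3 day 14 libraries lay above all 3 day 7 libraries in 7 of the 11, as in 31.6% of all genes tested, and below them in 2, as in 17.8%.

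**Figure D1:**
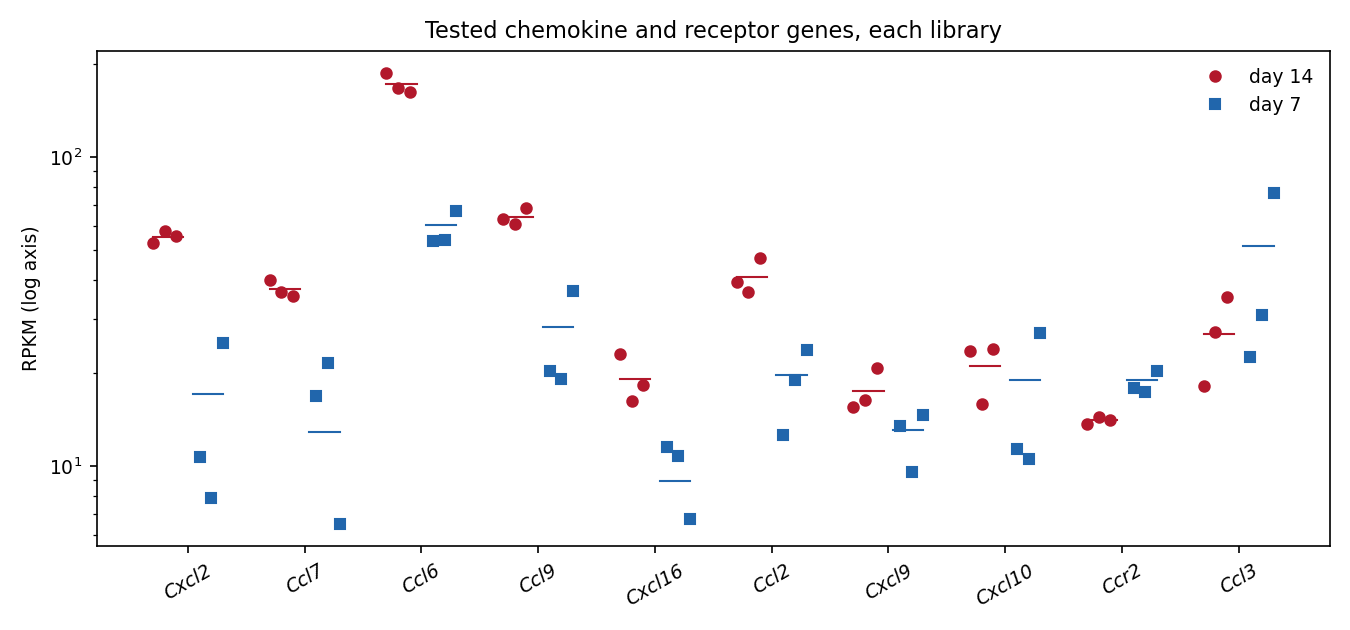
RPKM (log axis) of 10 of the 11 tested genes in each library, with day 14 as circles on the left and day 7 as squares on the right of each gene, and a line at each mean (n = 3 on day 14, and n = 2 on day 7 with replicates 1 and 2 counted as 1 sample). Cxcl2, Ccl7, Ccl6, Ccl9, Cxcl16, Ccl2 and Cxcl9 show no overlap with day 14 above, Ccr2 none with day 14 below, and Cxcl10 and Ccl3 overlap.

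The most abundant ligand on day 14 was Ccl6, a CC ligand of the mouse that binds Ccr1 and that macrophages produce (chr11:83587882-83593087, − strand, GRCm38). Ccl6 had 187, 167 and 163 RPKM on day 14, against 53.7, 54.0 and 66.8 RPKM on day 7. The days did not overlap, and the mean of 172 ± 12.8 RPKM on day 14 (SD, n = 3) was 2.85 times the 60.3 ± 9.17 RPKM on day 7 (SD, n = 2). Its log2 fold change was 1.50 (SE 0.24, adjusted p = 0.00887). Ccl9, the neighbouring gene (chr11:83572919-83578636, − strand), also encodes a ligand of Ccr1. Ccl9 had 63.1, 60.6 and 68.3 RPKM on day 14, against 20.3, 19.1 and 36.8 RPKM on day 7, again without overlap, with a log2 fold change of 1.22 (SE 0.28, adjusted p = 0.0421). Together they gave 250, 228 and 231 RPKM on day 14, against 74.0, 73.0 and 103 RPKM on day 7. That sum was 43.0% to 46.5% of all ligand RPKM on day 14 and 24.0% to 28.4% on day 7. Without day 7 replicate 3 the adjusted p was 0.0589 for Ccl6 and 0.0583 for Ccl9, and for Ccl9 it was 0.0508 to 0.0645 without any one of the day 14 libraries.

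Of the ligands of Ccr2, which draw monocytes, Ccl7 was called. Its mean of 22.1 CPM over the 5 samples was little above the filter of 20 CPM. It passed only through the day 14 samples, in which it was high. Ccl7 (chr11:82045712-82047525, + strand) had 39.9, 36.6 and 35.4 RPKM on day 14, against 16.9, 21.6 and 6.51 RPKM on day 7. The day 14 libraries lay close together and above all of day 7, where replicate 3 was the lowest. The log2 fold change was 1.63 (SE 0.36, adjusted p = 0.0388). It rested on that library, as without day 7 replicate 3 it was 0.92 (adjusted p = 0.303), and the call also ended without day 7 replicate 1 (adjusted p = 0.0614) and without day 14 replicate 2 (0.0634). Without day 14 replicate 1 the mean of Ccl7 fell below the filter and it was not tested, and limma-voom on the recovered reads did not call it (adjusted p = 0.190), nor did weights from a variance trend on mean CPM (0.215).

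Ccl2, whose product is the main monocyte attractant of this group and whose gene lies next to Ccl7 (chr11:82035571-82037453, + strand), had 39.3, 36.6 and 47.2 RPKM on day 14, against 12.6, 19.1 and 23.7 RPKM on day 7. These values did not overlap either, but the log2 fold change of 1.04 (95% interval 0.29 to 1.78) did not pass the test (adjusted p = 0.128). Ccl12, another Ccr2 ligand of the mouse, was below the filter and had 2.94, 12.0 and 13.4 RPKM on day 14, against 5.14, 4.80 and 2.57 RPKM on day 7. Day 14 replicate 1 lay within the day 7 range. Ccl8, which in the mouse acts through Ccr8, was the most abundant gene below the filter and ran the other way, with 24.8, 23.1 and 19.7 RPKM on day 14, against 41.5, 38.2 and 48.6 RPKM on day 7. Those days did not overlap, and with a filter of 5 CPM the log2 fold change of Ccl8 was -0.94 (adjusted p = 0.263).

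Cxcl2, an attractant of neutrophils through Cxcr2 that activated macrophages secrete (chr5:90903871-90905938, + strand), had the largest log2 fold change of the tested members. Cxcl2 had 52.7, 57.5 and 55.3 RPKM on day 14, against 10.7, 7.89 and 25.1 RPKM on day 7. All day 14 libraries were above all day 7 libraries, and the mean of 55.2 ± 2.43 RPKM (SD, n = 3) was 3.21 times the 17.2 ± 11.2 RPKM of day 7 (SD, n = 2). The log2 fold change was 1.78 (SE 0.33, adjusted p = 0.0170). Cxcl2 remained called without any one of the day 14 libraries and without day 7 replicate 1 or 2. Without day 7 replicate 3, which leaves 1 day 7 sample, the log2 fold change was 2.45. Looser filters ended the call, at 5 CPM (adjusted p = 0.0675), at an RPKM of 1 or more in 2 samples (0.0920) and with no filter (0.161). Cxcl1, which binds the same receptor, had 2.72, 2.97 and 3.92 RPKM on day 14, against 0, 0 and 8.67 RPKM on day 7. Day 7 replicate 3 held more Cxcl1 than any day 14 library. Cxcl3 had 2.41, 2.32 and 1.50 RPKM on day 14 and was listed at 0 in all day 7 libraries. Of all stretches of 100 bases in their transcripts, 3.05% of those of Cxcl2 and 1.88% of those of Cxcl3 were shared between them, so a small part of their reads could fall to either gene. Their receptor gene Cxcr2 had 0.634, 1.04 and 1.65 RPKM on day 14 and was listed at 0 on day 7.

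Beside these genes, the summed RPKM of macrophage and of neutrophil markers stood higher on day 14, though not every marker did. Of the 13 macrophage and monocyte genes, 11 were tested, 5 were called higher and 0 lower, beside 1.48% and 1.79% of all genes tested. Among those higher were C1qa, a complement subunit that tissue macrophages make, with 50.3, 47.5 and 55.0 RPKM on day 14 against 13.3, 11.6 and 19.8 RPKM on day 7, and Csf1r, the receptor for the macrophage growth factor, with 19.0, 20.1 and 18.8 RPKM on day 14 against 8.27, 7.56 and 4.21 RPKM on day 7. Fcgr1, an Fc receptor, ran the other way without a call, with 15.2, 15.9 and 18.7 RPKM on day 14 against 31.7, 30.1 and 19.4 RPKM on day 7, and so did Ly6c2, which was below the filter. Adgre1 and C1qc overlapped between the days. The summed RPKM of 8 neutrophil genes was 52.5 to 67.6 on day 14 and 14.2 to 19.6 on day 7, and S100a9 alone gave 39.2, 36.6 and 49.2 RPKM of it on day 14 and 6.25, 3.29 and 8.81 RPKM on day 7. Csf3r was the 1 neutrophil gene tested and was not called (adjusted p = 0.484), and S100a8 and Mmp8 overlapped. The defining gene Ly6g was at 0 in 2 day 14 libraries, with 0.186 RPKM in the third, and at 0 on day 7, where Retnlg, Mmp9 and Cxcr2 were also at 0. The neutrophil list thus includes Cxcr2, itself a receptor described here. The part of these cells in the ligand values was not tested.

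**Figure D2:**
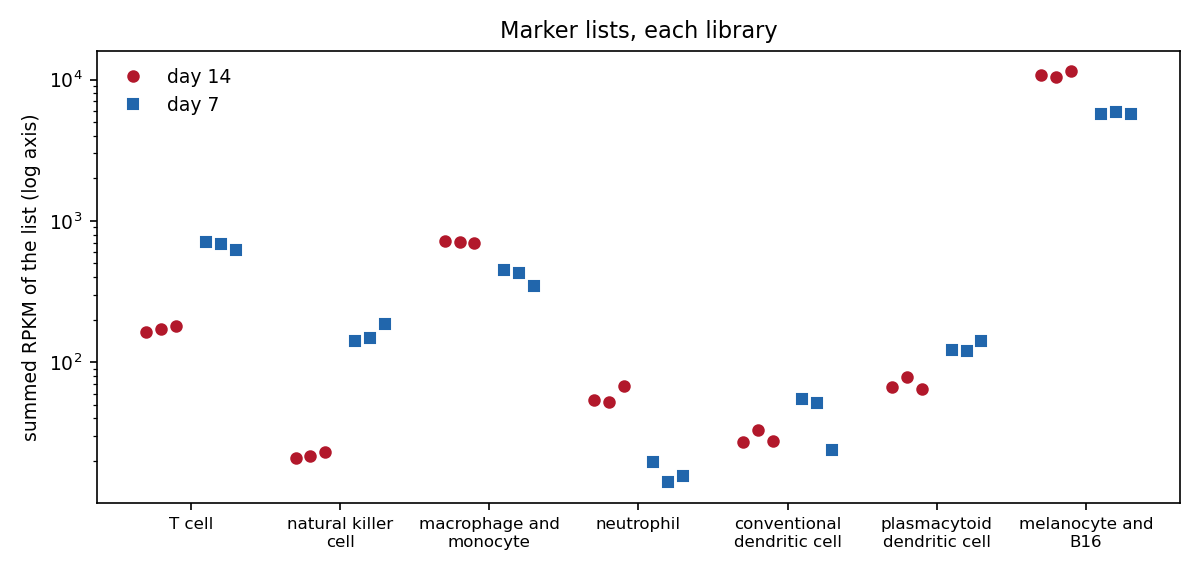
Summed RPKM (log axis) of 7 marker lists in each library, with day 14 as circles on the left and day 7 as squares on the right. T cell genes (165 to 181 on day 14, 622 to 703 on day 7) and natural killer cell genes (21.1 to 23.2 on day 14, 140 to 187 on day 7) lie lower on day 14, and macrophage and neutrophil genes lie higher.

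Of the ligands of Cxcr3, which interferon gamma induces and which draw activated T cells, Cxcl9 and Cxcl10 were tested and neither was called. Cxcl11 was below the filter. Cxcl9 had 15.6, 16.4 and 20.7 RPKM on day 14, against 13.5, 9.58 and 14.7 RPKM on day 7, a log2 fold change of 0.39 (95% interval -0.44 to 1.23, adjusted p = 0.617). Cxcl10 had 23.6, 15.8 and 23.9 RPKM on day 14, against 11.4, 10.6 and 27.0 RPKM on day 7, a log2 fold change of 0.25 (95% interval -0.82 to 1.32, adjusted p = 0.834). Cxcl9 did not overlap between the days, while day 7 replicate 3 held the highest Cxcl10 value of all. Cxcl11, of which C57BL/6 mice are known to carry a disrupted copy, had 1.44, 0.755 and 1.54 RPKM on day 14, against 0, 0 and 2.10 RPKM on day 7, and 41.7% of its exon bases overlap a gene on the opposite strand. Cxcl16, a membrane-bound ligand of Cxcr6, had 23.0, 16.2 and 18.3 RPKM on day 14, against 11.5, 10.8 and 6.75 RPKM on day 7. Those values did not overlap, yet the log2 fold change of 1.04 (95% interval 0.10 to 1.99) did not pass the test (adjusted p = 0.221). Cxcl16 shares 18.3% of its exon bases, and Cxcl10 5.91%, with genes on the opposite strand, and the strand setting of the counting is not given in the sources used here.

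**Figure D3:**
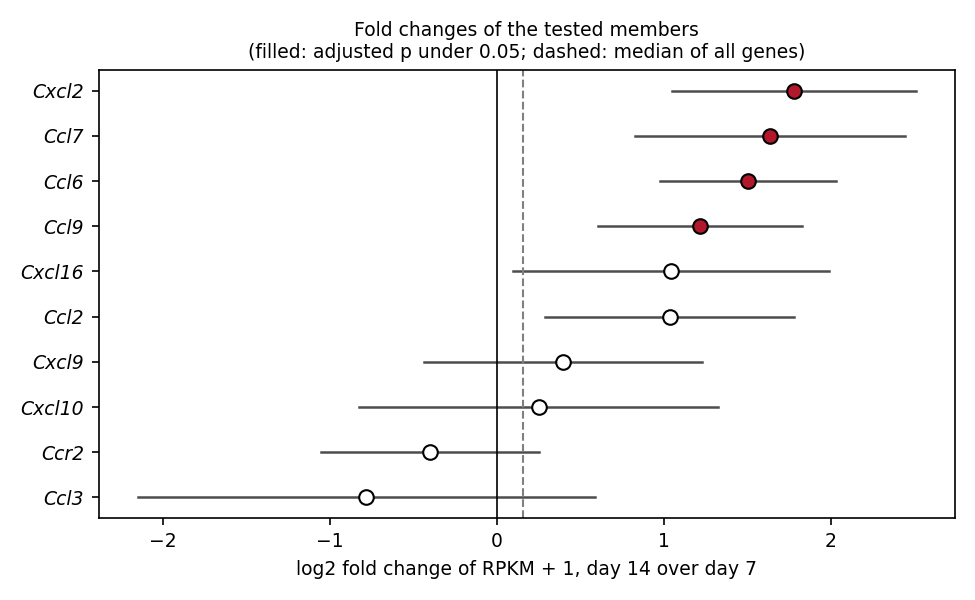
Log2 fold change of RPKM + 1, day 14 over day 7, for 10 of the 11 tested genes, with bars for the 95% interval, filled points for adjusted p under 0.05 and a dashed line at the median of all genes (0.16). The intervals of Cxcl16 and Ccl2 lie above 0 without a call after adjustment.

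Of Ccl3, Ccl4 and Ccl5, ligands that activated CD8 T cells and natural killer cells release, Ccl3 alone was tested, and it was not called. Ccl4 and Ccl5 were below the filter. Ccl3 had 18.2, 27.1 and 35.2 RPKM on day 14, against 22.6, 30.8 and 76.5 RPKM on day 7. The days overlapped and the log2 fold change of -0.78 had an interval from -2.15 to 0.59 (adjusted p = 0.533). Ccl4 had 14.9, 7.60 and 10.5 RPKM on day 14, against 0.380, 0.325 and 26.5 RPKM on day 7, so day 7 replicate 3 lay above and the other two below all of day 14. Ccl5 had 9.33, 11.9 and 8.37 RPKM on day 14, against 30.3, 26.6 and 28.7 RPKM on day 7. Its day 14 mean was 0.345 times that of day 7 with no overlap, and with a filter of 5 CPM its log2 fold change was -1.46 (adjusted p = 0.183). Xcl1, a ligand that the same cells release and that acts on cross-presenting dendritic cells, had 6.05, 3.65 and 1.72 RPKM on day 14, against 2.40, 1.23 and 25.8 RPKM on day 7. High values of Ccl3, Ccl4 and Xcl1 thus came from day 7 replicate 3. Ccl5 was not raised there. That library also held 187 RPKM of summed natural killer cell genes, against 140 and 148 RPKM in the other day 7 libraries. Among these genes, Klra8, Klre1, Klrk1 and Ncr1 were highest in it on day 7. Klra9 was lowest in it, at 37.2 against 45.1 and 47.9 RPKM, and Eomes and Klrb1c lay between the others. The part of natural killer cells in the values of Ccl3, Ccl4 and Xcl1 was not tested.

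Ligand RPKM summed over all 31 ligand genes were 537, 507 and 537 on day 14, against 260, 262 and 431 on day 7. Cxcl1, Cxcl2 and Cxcl3 gave 10.8% to 12.4% of it on day 14 and 3.01% to 7.83% on day 7. Ccl3, Ccl4 and Ccl5 gave 7.90% to 10.1% on day 14 and 20.5% to 30.6% on day 7. These shares did not overlap between the days, but the summed RPKM of Ccl3, Ccl4 and Ccl5 did, at 42.5, 46.7 and 54.0 on day 14 against 53.3, 57.8 and 132 on day 7, as a share also moves with the total. Shares overlapped for Cxcl9, Cxcl10 and Cxcl11, at 6.51% to 8.60% on day 14 and 7.70% to 10.2% on day 7, and for Ccl2, Ccl7 and Ccl12, at 15.3% to 17.9% on day 14 and 7.61% to 17.3% on day 7.

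**Figure D4:**
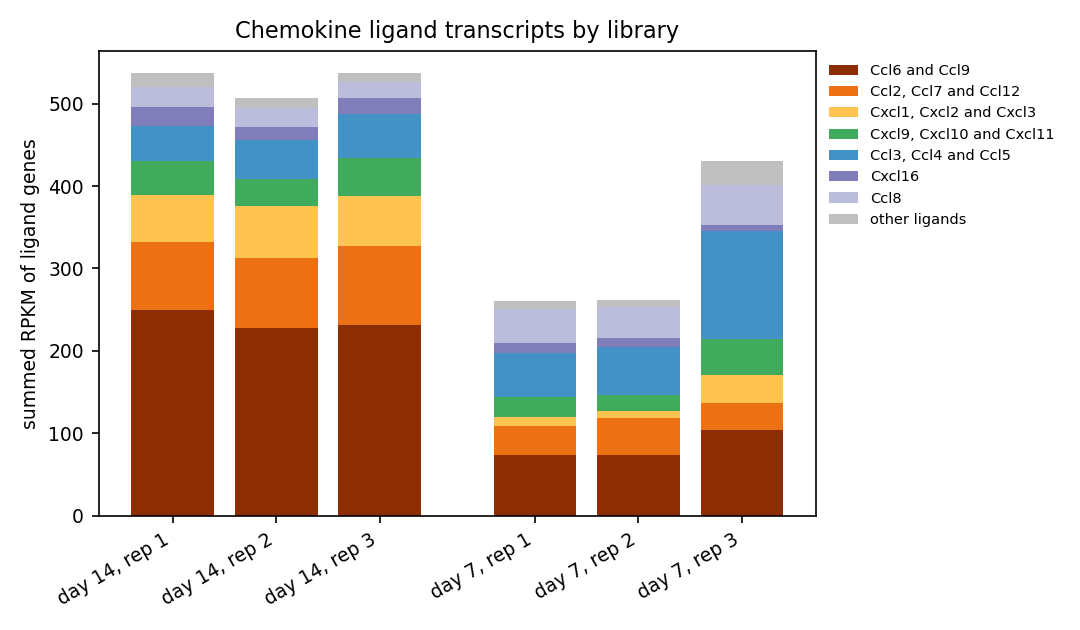
Summed RPKM of the 31 ligand genes in each library, stacked by group, with day 14 on the left and day 7 on the right. The block of Ccl6 and Ccl9 is 228 to 250 RPKM on day 14 and 73.0 to 103 RPKM on day 7, and the block of Ccl3, Ccl4 and Ccl5 reaches its highest value, 132 RPKM, in day 7 replicate 3.

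Among receptors, 2 passed the filter and 0 were called. Ccr2, the receptor of inflammatory monocytes and of some T cells (chr9:124101950-124113557, + strand), had 13.7, 14.5 and 14.1 RPKM on day 14, against 17.9, 17.4 and 20.3 RPKM on day 7. The days did not overlap, with a log2 fold change of -0.40 (95% interval -1.05 to 0.25, adjusted p = 0.496). Scaled to the summed RPKM of 12 T cell genes instead of all reads, Ccr2 turned positive, at 1.42, below the median of all genes, which moved to 1.89. Of the receptors below the filter, Cxcr6, a marker of T cells that settle in tissue, had 6.14, 4.86 and 4.71 RPKM on day 14, against 12.0, 9.56 and 8.18 RPKM on day 7, without overlap.

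Several receptors split the day 7 libraries. Cxcr3, the receptor of effector T cells, had 1.12, 2.39 and 1.87 RPKM on day 14, against 11.6, 9.68 and 1.24 RPKM on day 7. Ccr7, which guides naive T cells and mature dendritic cells to lymph nodes, had 3.51, 5.31 and 4.44 RPKM on day 14, against 9.77, 8.36 and 2.33 RPKM on day 7. In both, day 7 replicates 1 and 2 were higher than all of day 14 and replicate 3 was not. Ccr1, the receptor of Ccl6 and Ccl9, had 5.52, 6.13 and 6.79 RPKM on day 14, against 0, 0 and 15.6 RPKM on day 7. Xcr1, the receptor of Xcl1 on cross-presenting dendritic cells, had 0.710, 0.751 and 0.708 RPKM on day 14, against 4.06, 3.18 and 0 RPKM on day 7. Ccr1 and Xcr1 were thus each listed at 0 in part of the day 7 libraries, and in opposite ones. The summed RPKM of 11 conventional dendritic cell genes was 27.3 to 33.3 on day 14, against 54.5, 51.7 and 23.8 on day 7. The list includes Xcr1, Ccr7 and Ccl22 themselves, and its other genes did not all run alike. Itgax, Fscn1 and Batf3 were also higher in day 7 replicates 1 and 2 than in replicate 3. Clec9a ran the other way, with 0, 0 and 2.61 RPKM on day 7. Flt3, Zbtb46, Cd209a and Clec10a were higher in every day 14 library. The part of dendritic cells in the receptor values was not tested.

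Cxcr4, the receptor of Cxcl12, had 4.81, 4.58 and 4.24 RPKM on day 14, against 6.52, 3.21 and 5.43 RPKM on day 7, which overlapped. Cx3cr1, found on monocytes and on effector T cells, had 2.92, 2.33 and 2.43 RPKM on day 14, against 4.40, 3.67 and 2.11 RPKM on day 7, also with overlap. Ccr10, known from skin-homing T cells, had 3.66, 4.61 and 4.05 RPKM on day 14, against 0, 0 and 0.355 RPKM on day 7. It was the most abundant receptor below the filter whose day 14 libraries all lay higher. All 22 receptor genes together summed to 64.2, 66.9 and 64.8 RPKM on day 14, against 96.5, 85.3 and 84.6 RPKM on day 7. The sums did not overlap and ran opposite to the ligand sum. They include a tested receptor that is not reported here. Single receptors did not all run alike, as Cxcr4, Cx3cr1, Cxcr3 and Ccr7 overlapped between the days and Ccr10 was higher on day 14. Ccr1 gave 15.6 RPKM of the sum in day 7 replicate 3 and 0 in replicates 1 and 2.

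**Figure D5:**
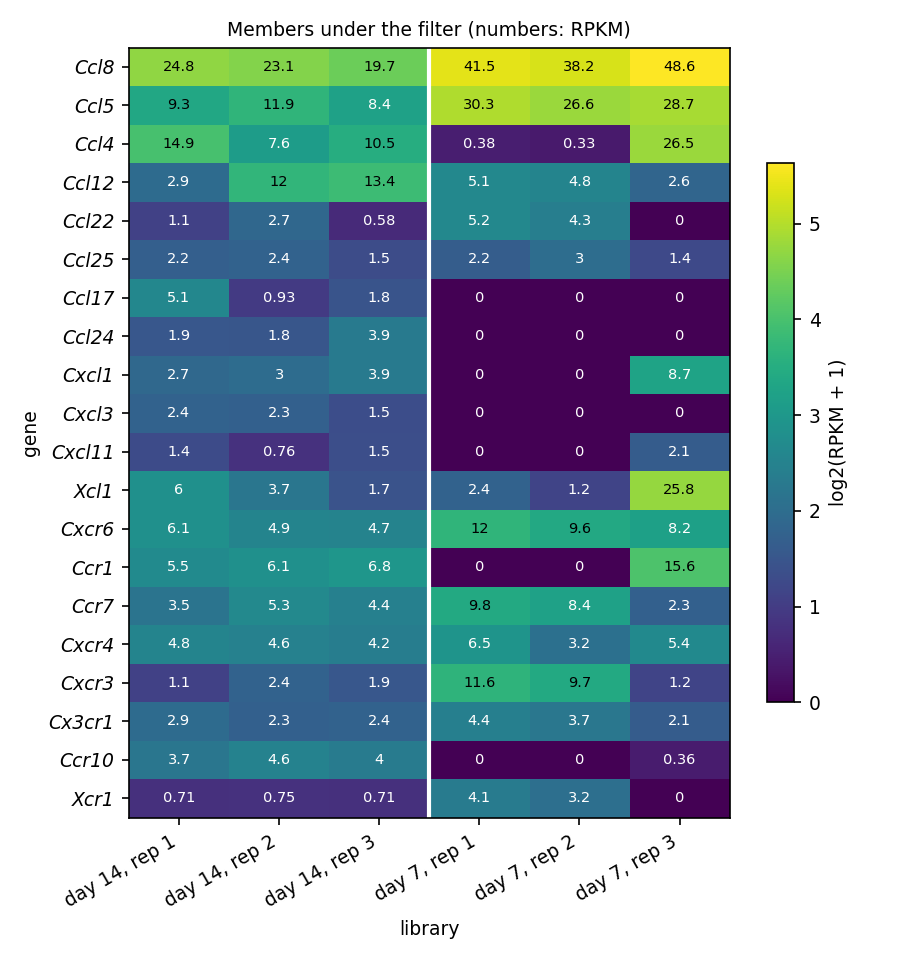
Log2(RPKM + 1) as colour, with the RPKM printed, for the 20 most abundant genes below the filter in each library, day 14 on the left and day 7 on the right. Ccl8, Ccl5 and Cxcr6 are lower in every day 14 library, and Ccl17, Ccl24 and Cxcl3 are listed at 0 on day 7.

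Of the 42 genes below the filter, 37 had a read in at least 1 library. Day 14 lay above day 7 without overlap in 11 of the 37 (29.7%) and below it in 3 (8.11%), against 25.1% and 4.75% of the 16025 genes of the whole table with reads below the filter. Reads on day 14 and none on day 7 were found in 15 of the 37 (40.5%), and the reverse in 0. Among the 16025 genes, 42.4% had no read on day 7, whose libraries were also the shallower ones. Of the ligands among the 15, Ccl17, which acts on Ccr4, had 5.13, 0.929 and 1.75 RPKM on day 14, and Ccl24, which draws eosinophils through Ccr3, had 1.90, 1.84 and 3.94 RPKM. Ccl22, the other ligand of Ccr4 and a product of mature dendritic cells, was in contrast higher in day 7 replicates 1 and 2, with 1.13, 2.67 and 0.581 RPKM on day 14, against 5.18, 4.34 and 0 RPKM on day 7. Ccl25, the ligand of Ccr9, had 2.24, 2.41 and 1.46 RPKM on day 14, against 2.17, 3.04 and 1.36 RPKM on day 7, with overlap.

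Other genes were scarce on both days. The remaining 22 genes reached at most 2.87 RPKM in any library, the value of Ccl28, a ligand of Ccr10, in day 7 replicate 3. Ackr4, an atypical receptor that takes up Ccl19 and Ccl21, had 1.60, 1.37 and 0.796 RPKM on day 14, against 0, 0 and 0.610 RPKM on day 7. Cxcl12, the stromal ligand of Cxcr4, had 0, 0.0195 and 0.110 RPKM on day 14, against 0.0307, 0 and 0 RPKM on day 7, beside fibroblast genes that summed to 1.63 to 1.81 RPKM on day 14 and 1.42 to 2.28 on day 7. Cxcl5, Cxcl13, Ccl21a, Cxcr1 and Ackr2 were listed at 0 in all 6 libraries.

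The signalling genes downstream of the receptors were read from a list of 48 names, of which 47 were in the files and 38 were tested. On day 14, 3 were called lower and 0 higher, against 1.79% of all genes tested called lower and 1.48% higher. At an unadjusted p under 0.05, 13 were lower and 1 was higher (Mapk3, a kinase of the MAP kinase cascade), and limma-voom called 15 lower and 1 higher. Of all 6691 genes tested, 1249 had an unadjusted p under 0.05 in either direction, and limma-voom called 538 lower and 736 higher. The median log2 fold change was -0.24, against 0.16 over all genes tested. Rgs16, a regulator that ends G protein signals and is induced in activated T cells, had 8.41, 8.51 and 7.32 RPKM on day 14, against 40.7, 37.0 and 27.7 RPKM on day 7 (log2 fold change -1.90, SE 0.33, adjusted p = 0.0139). Coro1a, an actin-binding protein that T cells need to leave lymphoid organs, had 25.0, 23.3 and 26.5 RPKM on day 14, against 53.0, 54.9 and 72.7 RPKM on day 7 (log2 fold change -1.30, SE 0.26, adjusted p = 0.0253). Rac2, the Rac GTPase of blood cells, had 6.05, 6.74 and 4.72 RPKM on day 14, against 33.8, 34.6 and 19.4 RPKM on day 7 (log2 fold change -1.98, SE 0.46, adjusted p = 0.0462). None of the 3 overlapped between the days.

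The exchange factor Dock2, which activates Rac downstream of chemokine receptors, had 11.9, 12.0 and 12.8 RPKM on day 14, against 30.7, 30.7 and 25.5 RPKM on day 7, with a log2 fold change of -1.13 that missed the threshold (adjusted p = 0.0668). Gnai2, the main inhibitory G protein subunit of leukocytes, had 94.4, 94.4 and 99.7 RPKM on day 14, against 79.4, 71.8 and 79.6 RPKM on day 7 (log2 fold change 0.31, adjusted p = 0.469). Rgs1, another regulator that dampens these signals, had 37.7, 36.0 and 36.8 RPKM on day 14, against 26.0, 26.2 and 32.4 RPKM on day 7 (log2 fold change 0.33, adjusted p = 0.512). Of the 14 T cell genes tested, 5 were called lower and 0 higher, and of 5 natural killer cell genes 3 were lower, beside the 1.79% of all genes tested. Trac, the constant region of the T cell receptor alpha chain, had 17.0, 12.0 and 15.7 RPKM on day 14, against 88.7, 88.4 and 67.7 RPKM on day 7. The part of these cells in the signalling values was not tested. Without day 7 replicate 3, none of the 3 was called (adjusted p of 0.0932 for Rgs16, 0.226 for Coro1a and 0.125 for Rac2), and Rac2 also missed the threshold without day 14 replicate 1 (0.0517), with a pseudocount of 0.1 (0.0626) or 0.5 (0.0546) and after thinning to equal reads (0.0613).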

How the data were processed

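Libraries carried molecular identifiers, per the labels' protocols. Trimmomatic 0.36, featureCounts (Subread 1.5.1) and GRCm38 are named in the submitters' processing notes, while the sources used here do not give the aligner, the strand setting or the use of identifiers. The authors deposited RPKM per gene with its length. Value times length gave whole reads in every library (largest deviation 4.1e-05), mostly even at low numbers (75.6% to 87.7%), so both mates were counted. After averaging day 7 replicates 1 and 2, limma 3.58.1 (R 4.3.3) was fitted to log2(RPKM + 1) of genes whose mean reached 20 CPM. Precision weights for each day followed a loess curve of variance against the mean over all samples (span 0.3, floor 0.005), and moderated variances followed a trend. Calls took a Benjamini-Hochberg adjusted p under 0.05. A curve on each day's own mean was fitted first, and the one used was then picked on simulated reads.

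The members, gene lists, filter and tests were chosen with earlier results of these data known. Named genes are the members past the filter (1 is not reported here), the 20 most abundant others, called signalling genes and 4 named in advance (Gnai2, Dock2, Coro1a and Rgs1). Genes named beyond that rule, among them Ackr4, Ccl28, Cxcl12 and Cxcr2, were chosen after their values were seen. Exon overlaps come from the exon coordinates that the authors deposited with the RPKM, shared stretches from GENCODE M21, and promoters from RefSeq GRCm38.p6. Alternatives covered pseudocounts, filters, weights, scaling, limma-voom on recovered reads, thinning to equal reads and leaving out each replicate.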

Additional observations from a re-analysis of the deposited data

How the results depend on the processing

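Of the 4 members called higher, 1 was still called with a filter of 5 CPM (Ccl6, adjusted p = 0.0386), 0 with an RPKM of 1 or more in 2 samples or with no filter, 2 with median-of-ratios scaling (median of all genes 0.02), and 1 to 4 with 1 library left out, the lowest without day 7 replicate 3 and 2 without day 14 replicate 1 or 2. Scaled to T cell transcripts, which moves the median of all genes from 0.16 to 1.89, all 11 were called higher, and the sign turned for Ccr2 (1.42), Ccl3 (1.10), Coro1a (0.60) and Dock2 (0.71), each still below that median. With no weights, limma-voom, 6 libraries counted singly, or the trend on mean CPM, 1 member was called lower, and 0 with any library left out. Signalling genes called lower (3 in the report) numbered 0 under each looser filter and under T cell scaling, 12 with no weights, 15 with limma-voom, 16 with libraries counted singly, 9 with the trend on mean CPM, 5 with the trend on each day's own mean, and 0 to 3 with 1 library left out (0 without day 7 replicate 3). Those called higher numbered 31 under T cell scaling, 1 with limma-voom, 2 with libraries counted singly, and 0 with any library left out. The CPM trend was added after seeing the data. The own-mean trend was fitted first, so the trend used in the report was itself picked after that fit. Over all genes the calls were 99 higher and 120 lower, against 63 and 160 with median-of-ratios scaling, 6320 and 11 with T cell scaling, 601 and 410 with no weights, 736 and 538 with limma-voom, 452 and 243 with the CPM trend, 114 and 213 with the own-mean trend, and 51 and 21 without day 7 replicate 3. The same-numbered replicates did not deviate together (correlations of -0.0145, -0.0148 and -0.0341), so no pairing by number was seen. With day 7 replicates 1 and 2 nearly alike, these correlations cannot exclude one. With the replicate block and 6 libraries, 6 members were higher and 1 lower, and 0 signalling genes were higher and 16 lower. Where day 7 replicate 3 is left out, the lone day 7 sample is assumed to vary as day 7 did with it. The cause of these differences was not tested. Depth limits the genes below the filter, for which a value of 0 is no measure of absence.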
